A study of Mus musculus with 8 samples.

Results

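The genes described here are 10 components of epithelial cell junctions, Cldn1, Cldn3, Cldn4, Cldn7, Cldn8, Ocln, Tjp1, F11r, Cdh1 and Dsp, out of 23152 genes measured on the arrays. They were taken by name, and the level of each is the mean log2 signal of the exon-level probe sets listed with that symbol alone, 3 to 24 per gene and 122 in all. All 10 were measured. The set was chosen with an earlier result in view, that Cldn1 was among the most lowered genes in irradiated tumors without miR-21. The genes were thus selected on the difference between irradiated miR-21-/- and miR-21+/+ tumors, and the values of that comparison are given as a description, with no test.

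RNA came from mammary fat pad primary tumors of female mice that all carried MMTV-PyMT, a transgene in which a mammary tumor virus promoter drives the polyoma middle T oncogene in mammary epithelium. The mice were either miR-21+/+;MMTV-PyMT or miR-21-/-;MMTV-PyMT, and the tumors of each genotype were either untreated or irradiated, which made 4 groups of 2 arrays. The sample labels give a dose of 8 Gy at a tumor volume of 1000 mm3 and growth to 2000 mm3 before the end of the experiment, while the study's text gives another dose and, in a legend, an earlier collection, so the dose and the interval after irradiation are not settled. The labels give neither the age of the mice on the arrays nor the volume of the untreated tumors. They are also silent on whether the 2 arrays of a group hold tumors of different mice. The p-values then reflect only the spread among these arrays, which may be technical.

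The median level over all genes was 5.08 to 5.16 on the 8 arrays, and the junction genes lay between 5.23 and 10.63. The probe set shared by Mir21 and Vmp1, which is dim, read 2.34 to 3.08 on the miR-21+/+ arrays and 1.69 to 2.02 on the miR-21-/- arrays. Irradiated miR-21-/- replicate 1 stood apart. Its correlation across genes with the other 7 arrays was 0.898 to 0.915, against 0.955 to 0.987 for the other 21 pairs. On this array all 12 adipocyte markers were at their highest, with a mean of 10.43 against 4.72 to 5.63 elsewhere, and all 3 epithelial reference genes (Epcam, Krt8 and Krt18) were at their lowest, with a mean of 8.34 against 9.40 to 10.25. The fibroblast and endothelial markers were at their highest on it in 8 of 10 and 8 of 8 genes. The luminal markers had a mean of 7.11 on it against 7.76 to 8.31, with 10 of 14 at their lowest and 1 at its highest. Of 8 basal markers, 0 were at their lowest on it and 4 at their highest. Their mean was 5.88 against 5.24 to 6.29. The macrophage markers had a mean of 7.73 against 6.16 to 7.29, with 3 of 8 at their highest. The T cell markers had a mean of 4.08 against 3.95 to 4.58. The keratins and Epcam were well above the array median on every array. Irradiated miR-21+/+ replicate 1 had a mean of 5.49 over the skin keratinocyte markers, against 4.01 to 4.54 on the other arrays, and replicate 2 of that group had a mean of 6.63 over the skeletal muscle markers, against 4.65 to 5.36. In whole tumors, fewer cells of a type and less RNA per cell cannot be told apart.

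Epithelial cells are held together by several kinds of junction that these genes serve. In tight junctions, claudins form the strands that seal the space between neighboring cells, occludin (Ocln) joins those strands, the immunoglobulin-family adhesion protein F11r (JAM-A) lies beside them, and the scaffold Tjp1 (ZO-1) ties them to actin. In adherens junctions, E-cadherin (Cdh1) binds the E-cadherin of the next cell, and in desmosomes desmoplakin (Dsp) anchors keratin filaments to the membrane. Low claudins together with low E-cadherin mark a class of mammary tumors known as claudin-low.

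The microRNA that separates the genotypes is shown here with its seed, bases 2 to 8, in capitals (RefSeq, GRCm38.p6, chr11:86584120-86584141, minus strand).
mmu-miR-21a-5p: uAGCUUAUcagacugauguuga

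Windows of 300 bases around the start, 250 before it and 50 after it, are shown for the claudins with the largest differences between the genotypes in untreated tumors, Cldn1 and Cldn4, and for Cldn3, next to Cldn4 on chromosome 5 with no coding gene between them. Capitals mark the E-box letters CAGGTG or, on the other strand, CACCTG, the sequence to which the repressors Snai1, Snai2, Zeb1 and Zeb2 are known to bind. The windows are from RefSeq on GRCm38.p6 at chr16:26371790-26372089 (minus strand) for Cldn1, chr5:134946885-134947184 (minus strand) for Cldn4 and chr5:134985964-134986263 (plus strand) for Cldn3.
Cldn1: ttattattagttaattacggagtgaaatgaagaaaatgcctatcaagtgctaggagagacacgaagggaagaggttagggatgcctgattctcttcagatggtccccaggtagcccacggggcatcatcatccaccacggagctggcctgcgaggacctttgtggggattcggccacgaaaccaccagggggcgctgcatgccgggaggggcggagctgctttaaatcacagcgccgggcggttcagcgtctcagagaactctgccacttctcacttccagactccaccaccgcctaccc
Cldn4: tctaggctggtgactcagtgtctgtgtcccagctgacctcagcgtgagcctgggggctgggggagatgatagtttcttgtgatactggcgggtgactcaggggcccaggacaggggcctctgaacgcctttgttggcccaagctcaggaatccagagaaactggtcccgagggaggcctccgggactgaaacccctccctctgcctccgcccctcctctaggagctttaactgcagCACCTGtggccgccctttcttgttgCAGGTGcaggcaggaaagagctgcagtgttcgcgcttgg
Cldn3: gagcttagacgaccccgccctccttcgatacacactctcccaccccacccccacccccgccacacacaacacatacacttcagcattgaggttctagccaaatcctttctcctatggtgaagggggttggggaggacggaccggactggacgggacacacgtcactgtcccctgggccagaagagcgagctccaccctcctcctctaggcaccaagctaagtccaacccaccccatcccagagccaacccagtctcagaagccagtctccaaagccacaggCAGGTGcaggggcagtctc
The Cldn1 window does not hold these letters, the Cldn4 window holds them at 2 places and the Cldn3 window at 1. Windows were listed for 8 of the 10 genes, and those of 6 genes held the letters at least once (Cldn3, Cldn4, Cldn7, Ocln, F11r and Dsp), while those of Cldn1 and Tjp1 did not. Some genes had more than 1 window, and counted by window 7 of 10 held the letters. Of all 32851 windows of this length, 20.2% held them. A match describes the letters and is not evidence of binding.

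Cldn1 showed the largest difference between the genotypes among the 10 genes, in untreated as in irradiated tumors. Its log2 level was 9.64 and 10.14 in the untreated miR-21+/+ tumors, 10.63 and 10.53 in the irradiated miR-21+/+ tumors, 7.81 and 7.85 in the untreated miR-21-/- tumors, and 7.67 and 8.16 in the irradiated miR-21-/- tumors. Each miR-21-/- array was below every miR-21+/+ array, with a gap of 1.48 between the nearest. In untreated tumors Cldn1 was lower without miR-21 by 4.16-fold, a log2 difference of -2.06 (standard error 0.24, 95% interval -2.61 to -1.50, limma adjusted p = 0.0280, n = 2 per group). It was the 1 junction gene of the 10 that passed an adjusted p under 0.05 in this comparison, which 0.423% of all genes did. In irradiated tumors the difference was -2.67 (6.35-fold lower). The means fell in the order irradiated miR-21+/+ (10.58 ± 0.08, SD, n = 2), untreated miR-21+/+ (9.89 ± 0.35), irradiated miR-21-/- (7.91 ± 0.34) and untreated miR-21-/- (7.83 ± 0.03). The last 2 groups overlapped and differed by 0.08 (95% interval -0.47 to 0.64).

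Over 18 other settings, the untreated log2 difference of Cldn1 was -2.31 to -1.81 and the adjusted p 0.0020 to 0.383. The adjusted p missed 0.05 when untreated miR-21+/+ replicate 1 (0.203) or 2 (0.107), irradiated miR-21+/+ replicate 1 or 2 (0.0932 each), or untreated miR-21-/- replicate 1 (0.383) or 2 (0.282) was left out, with arrays centred on the epithelial reference genes (0.122) and without moderation of the variances (0.183).

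**Figure D1:**
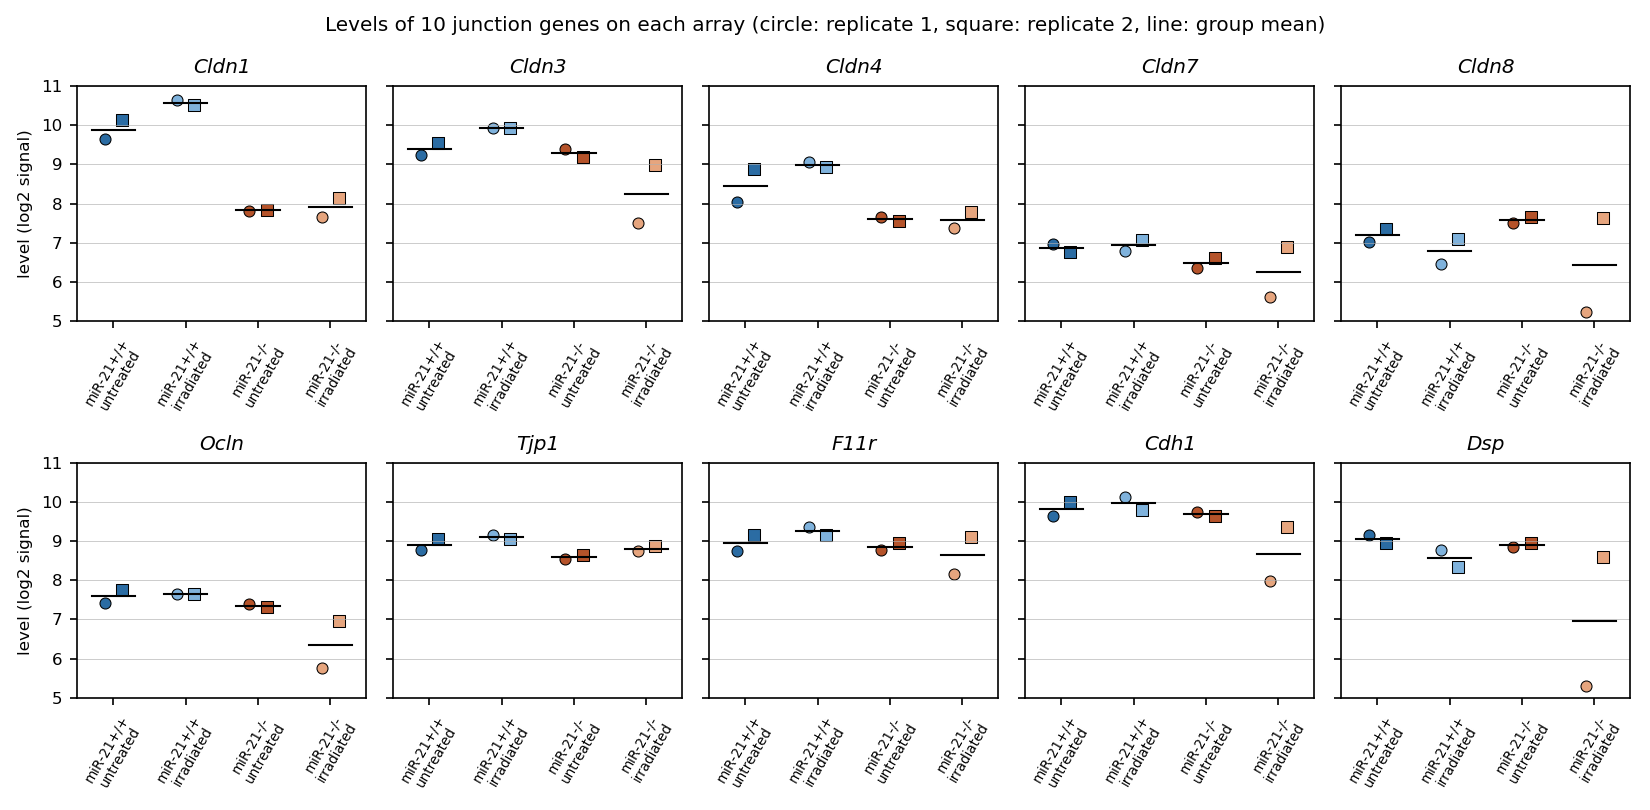
Log2 signal (vertical axis) of each of the 10 genes on the 8 arrays, by genotype and treatment, with circles for replicate 1, squares for replicate 2 and lines for group means. All 4 miR-21-/- arrays of Cldn1 (7.67 to 8.16) sit below all 4 miR-21+/+ arrays (9.64 to 10.63), while Dsp is low on a single array (5.31).

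Cldn4 followed Cldn1 in order of the untreated difference, at a smaller size. Its level was 8.04 and 8.88 in untreated and 9.06 and 8.92 in irradiated miR-21+/+ tumors, and 7.66 and 7.55 in untreated and 7.38 and 7.79 in irradiated miR-21-/- tumors. All miR-21-/- arrays were again below all miR-21+/+ arrays, but the nearest were 0.24 apart and untreated miR-21+/+ replicate 1 was the low array of its genotype. The untreated log2 difference was -0.85 (standard error 0.29, 95% interval -1.53 to -0.18, adjusted p = 0.264 from limma, unadjusted p = 0.0197), short of a fold change of 2. Without that array it was -1.28, past a fold change of 2, and without untreated miR-21+/+ replicate 2 it was -0.43. These were the ends of its range over 18 other settings. In irradiated tumors the difference was -1.40. Ocln was the other gene in which the genotypes did not overlap, by 0.0291. This complete separation of 4 arrays from 4, with miR-21-/- below, was seen in 3 of the 10 genes and in 6.14% of all genes, and it includes the irradiated arrays that selected Cldn1.

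In Cldn3, the neighbor of Cldn4 on the chromosome, the genotypes overlapped in untreated tumors. Cldn3 and Cldn4 were not tested against each other. It read 9.25 and 9.56 in untreated and 9.92 and 9.93 in irradiated miR-21+/+ tumors, and 9.39 and 9.19 in untreated miR-21-/- tumors. In irradiated miR-21-/- tumors it read 7.52 and 8.98, and the replicate that stood apart was the low one. The untreated log2 difference was -0.12 (95% interval -1.09 to 0.86, adjusted p = 0.949 from limma).

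Cldn7 and Cldn8 were the claudins with the smallest differences in irradiated tumors. Cldn7 read 6.97 and 6.78 in untreated and 6.81 and 7.08 in irradiated miR-21+/+ tumors, 6.36 and 6.62 in untreated miR-21-/- tumors, and 5.62 and 6.89 in irradiated ones. Cldn8 read 7.04 and 7.35 in untreated and 6.48 and 7.11 in irradiated miR-21+/+ tumors, 7.50 and 7.65 in untreated miR-21-/- tumors, and 5.23 and 7.64 in irradiated ones. Both untreated miR-21-/- arrays of Cldn8 were thus above both untreated miR-21+/+ arrays, the reverse of Cldn1 and Cldn4, with a difference of 0.38 (95% interval -1.16 to 1.93, adjusted p = 0.869 from limma). For Cldn7 the difference was -0.39 (95% interval -1.26 to 0.49, adjusted p = 0.734). The level of Cldn7 averages 9 probe sets between 3.29 and 10.01, and with the dim ones left out its irradiated difference went from -0.69 to -1.31.

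Ocln, F11r and Tjp1, the other tight junction genes of the set, did not pass the test between the genotypes in untreated tumors. Ocln read 7.43 and 7.76 in untreated and 7.64 and 7.65 in irradiated miR-21+/+ tumors, 7.40 and 7.31 in untreated miR-21-/- tumors, and 5.75 and 6.97 in irradiated ones. F11r read 8.76 and 9.16, 9.35 and 9.14, 8.77 and 8.94, and 8.16 and 9.10 in the same 4 groups. Both genes were lowest on irradiated miR-21-/- replicate 1, and F11r on replicate 2 lay within the miR-21+/+ values. Tjp1, which endothelial cells and fibroblasts are also known to make, was the most even of the 10, with 8.77 and 9.04, 9.14 and 9.06, 8.54 and 8.65, and 8.75 and 8.86. It was the 1 gene of the set that was not at its lowest on irradiated miR-21-/- replicate 1. The untreated log2 differences were -0.24 for Ocln (95% interval -1.08 to 0.60), -0.10 for F11r (-0.83 to 0.62) and -0.31 for Tjp1 (-0.71 to 0.10), with adjusted p = 0.842, 0.936 and 0.514 from limma.

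Cdh1 and Dsp stand for the other kinds of junction. Cdh1 read 9.63 and 9.98 in untreated and 10.13 and 9.80 in irradiated miR-21+/+ tumors, 9.74 and 9.64 in untreated miR-21-/- tumors, and 7.97 and 9.36 in irradiated ones. Dsp read 9.15 and 8.95 in untreated and 8.78 and 8.33 in irradiated miR-21+/+ tumors, 8.83 and 8.96 in untreated miR-21-/- tumors, and 5.31 and 8.60 in irradiated ones. In untreated tumors the genotypes overlapped in Cdh1, with a difference of -0.12 (95% interval -1.07 to 0.84, adjusted p = 0.947 from limma), and lay close in Dsp, at -0.16 (95% interval -2.19 to 1.88, adjusted p = 0.968). The wide interval of Dsp reflects the irradiated miR-21-/- replicates, 3.29 apart, which enter the common spread. These replicates enter the spread of the other genes too. With limma on the untreated arrays alone, the adjusted p was 0.67 for Dsp, 0.289 for Cldn8 and 0.282 for Cldn7.

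In untreated tumors as a whole, 1 of the 10 genes, Cldn1, was at least 2-fold lower with an unadjusted p under 0.05, and 0 were higher by the same criterion, beside 2.16% and 0.955% of all genes. The median log2 difference over the 10 was -0.20, with 9 negative and 1 positive, against 0.03 over all genes. The 9 genes other than Cldn1 had adjusted p values of 0.264 to 0.968.

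**Figure D2:**
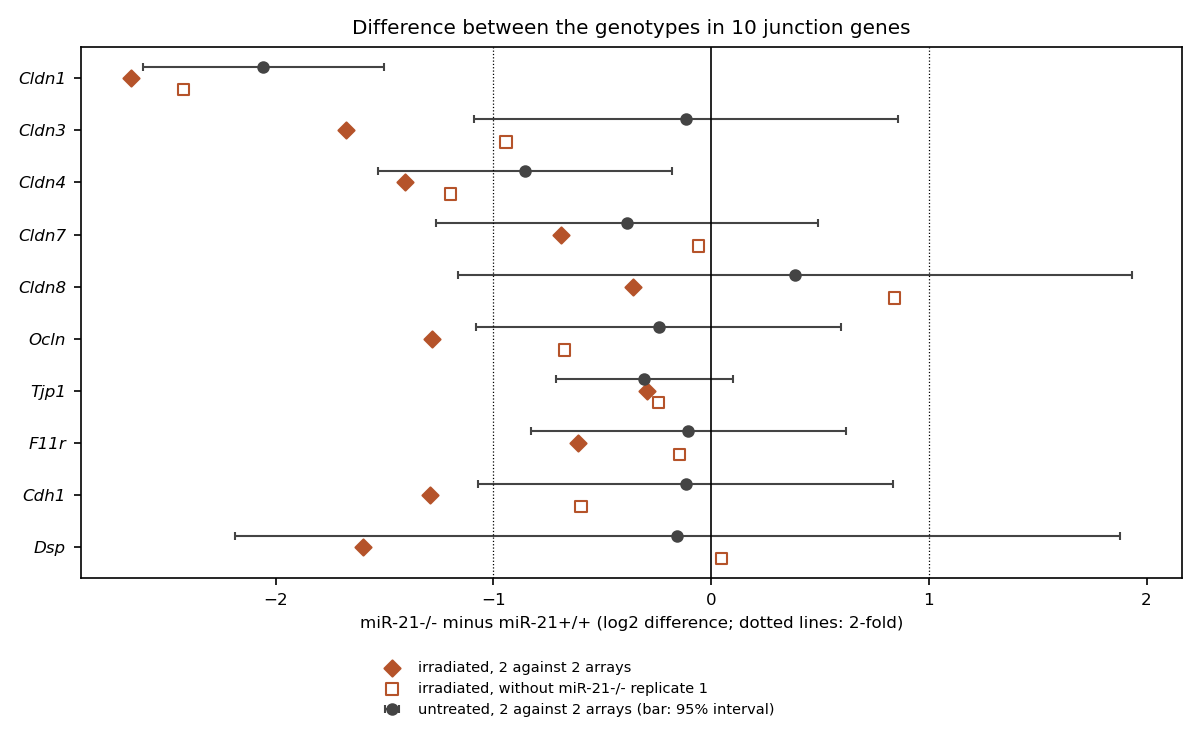
Log2 difference between miR-21-/- and miR-21+/+ tumors (horizontal axis) for each gene, with 95% intervals for untreated tumors and, without intervals, irradiated tumors with both miR-21-/- arrays or with replicate 2 alone. Cldn1 lies past the 2-fold line in all 3, and Dsp goes from -1.60 to 0.05 when replicate 1 is left out.

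In irradiated tumors, 10 of the 10 genes had a negative difference and 6 were at least 2-fold lower without miR-21, where 2.93% of all genes were, which is given as a description because this comparison selected Cldn1. After Cldn1 (-2.67) came Cldn3 (-1.68), Dsp (-1.60), Cldn4 (-1.40), Cdh1 (-1.29) and Ocln (-1.28), and the other 4 lay between -0.69 and -0.30. The median was -1.29, against -0.0031 over all genes. Without irradiated miR-21-/- replicate 1, 2 genes were at least 2-fold lower, Cldn1 (-2.42) and Cldn4 (-1.20), and Cldn3 was at -0.94, Ocln at -0.67, Cdh1 at -0.60 and Dsp at 0.05. Without replicate 2 of that group, 9 genes were at least 2-fold lower. Of the 10, 9 were at their lowest on that array, as were 24.8% of all genes.

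The mean of the epithelial reference genes was at its lowest on the same array (8.34). It was also lower on the other miR-21-/- arrays (9.64 and 9.65 untreated, 9.40 irradiated) than on the miR-21+/+ arrays (9.73 to 10.25). Centring on it therefore also takes out this difference between the genotypes. It shifts all genes of an array by the same amount. The median over all genes of the irradiated against untreated difference in miR-21-/- tumors went from -0.04 to 0.73. For the genotypes in irradiated tumors, the share of all genes past 2-fold was not counted under this centring. With each array centred on the mean of Epcam, Krt8 and Krt18, 1 of the 10 was at least 2-fold lower in irradiated miR-21-/- tumors, Cldn1 at -1.40, and 6 had a negative difference. Relative to that mean, Cldn1 was lower than the irradiated miR-21+/+ tumors by -1.11 on replicate 1 and by -1.68 on replicate 2. Dsp was at -1.45 on replicate 1 and 0.79 on replicate 2, and Tjp1 at 1.45 and 0.50. Cldn3 was at -0.61 and -0.20, and Cldn4 at 0.19 and -0.46. Cdh1 was at -0.19 and 0.14, and Ocln at -0.0918 and 0.0648. Cldn1 was thus low beside the epithelial genes on both arrays, and Dsp and, by a smaller amount, Cldn3 on replicate 1. Cdh1 and Ocln lay within 0.19 of the irradiated miR-21+/+ mean on both. Relative to the reference, Cldn3 on replicate 2 (-0.42) was above both untreated miR-21+/+ arrays (-0.48 each). Cldn4 on replicate 2 (-1.61) lay between the untreated miR-21+/+ arrays (-1.69 and -1.16). The part that the number of epithelial cells had in these values was not tested.

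**Figure D3:**
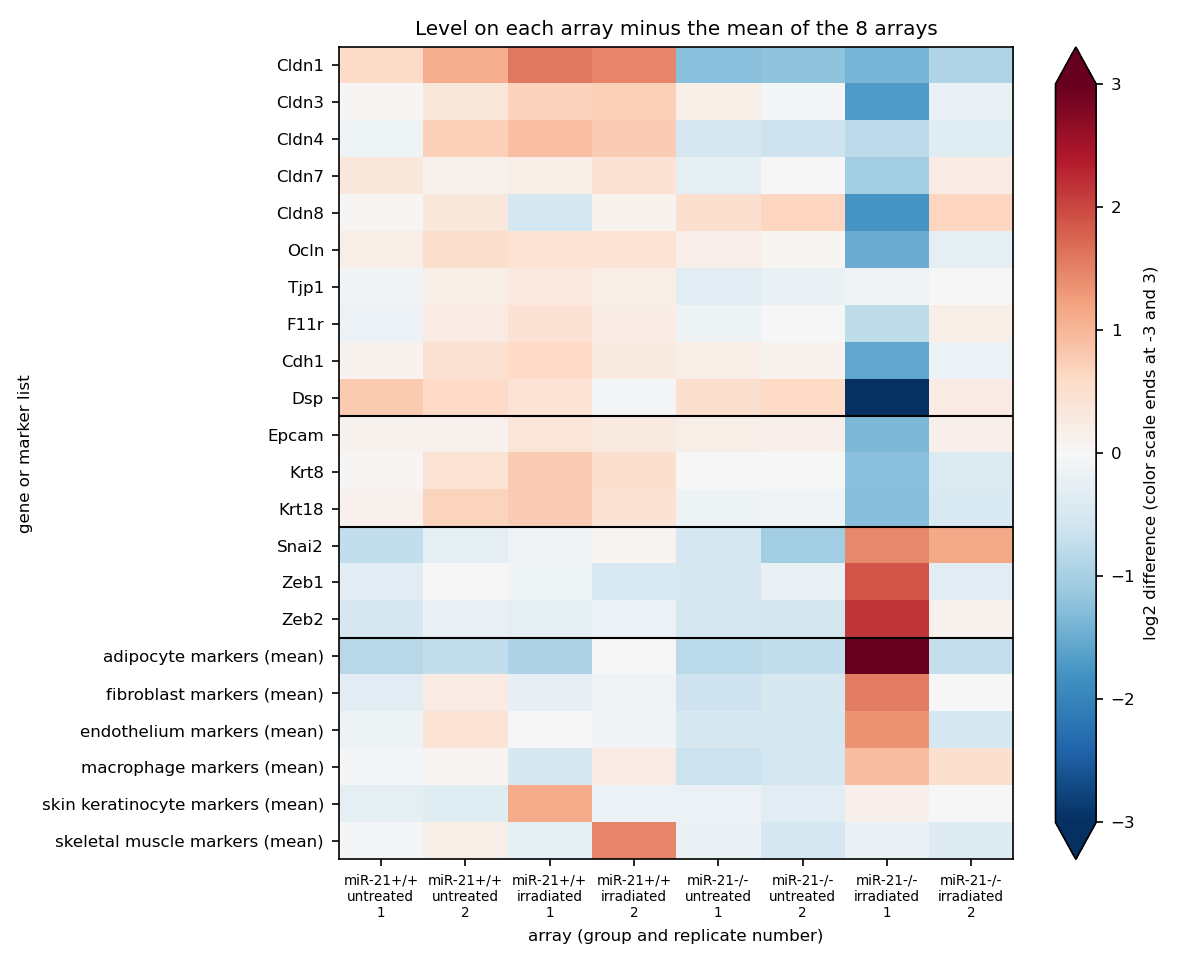
Level on each array minus the mean of the 8 arrays (color, log2) for the 10 genes, the 3 epithelial reference genes, 3 repressors and the means of 6 marker lists. The column of irradiated miR-21-/- replicate 1 is low in 9 of the 10 junction genes relative to every other array and high in adipocyte markers (10.43), while the low Cldn1 runs across all 4 miR-21-/- columns.

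The comparisons of irradiated with untreated tumors share the irradiated arrays with the comparison that selected Cldn1. In miR-21+/+ tumors 0 of the 10 genes were lower or higher by fold change and unadjusted p (0.942% and 1.16% of all genes), and limma called 0 at an adjusted p under 0.05 (0.212% of all genes). Cldn1 had the largest difference, 0.69 (standard error 0.24, adjusted p = 0.421 from limma, unadjusted p = 0.0208), and was the 1 gene with an unadjusted p under 0.05 (8.88% of all genes). Cldn4 had 0.53 (95% interval -0.14 to 1.21), Cldn3 0.52 (-0.45 to 1.50) and Dsp -0.50 (-2.53 to 1.54).

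In miR-21-/- tumors, Cldn3 (-1.04, standard error 0.42) and Cdh1 (-1.02, standard error 0.41) were at least 2-fold lower after irradiation with an unadjusted p under 0.05, 0 genes were higher, and 1.33% and 1.7% of all genes were lower and higher. Their adjusted p was 0.438 each from limma, and 0 of the 10 passed 0.05 (0.013% of all genes), while 3 had an unadjusted p under 0.05 (11% of all genes). Ocln was at -0.99 (unadjusted p = 0.0263), Dsp at -1.94 (unadjusted p = 0.0587) and Cldn8 at -1.14 (unadjusted p = 0.126). Cldn1 (0.08) and Cldn4 (-0.02), which were already low in untreated miR-21-/- tumors, had the smallest differences of the 10. Without irradiated miR-21-/- replicate 1 0 genes met the criterion, with Cldn3 at -0.30 and Cdh1 at -0.33, and without replicate 2 there were 5 (Cldn3, Cldn8, Ocln, Cdh1 and Dsp, the last at -3.59).

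The difference between the radiation effects of the genotypes met the same criterion in Cldn3 alone (-1.56, standard error 0.59, adjusted p = 0.589 from limma, unadjusted p = 0.0313), as did 3.91% of all genes in either direction. None of the 10 had an adjusted p under 0.05, which 0.00432% of all genes had. For Cldn1 the difference was -0.61 (95% interval -1.39 to 0.17, adjusted p = 0.689). Without irradiated miR-21-/- replicate 1 the value of Cldn3 was -0.83, and 0 genes met the criterion.

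The probe sets of Cldn1 and Cldn4 moved together. All 6 probe sets of Cldn1 were lower in untreated miR-21-/- tumors, by -2.63 to -1.70, and all 6 in irradiated ones, by -2.97 to -2.13. All 3 of Cldn4 were lower in both, by -1.10 to -0.48 and -1.83 to -0.75. Those of the larger genes fell on both sides in untreated tumors, with 13 of 23 lower for Cdh1, 14 of 24 for Dsp, 18 of 24 for Tjp1 and 4 of 11 for F11r. In irradiated tumors 23 of 23 were lower for Cdh1, 23 of 24 for Dsp and 11 of 11 for F11r, and with replicate 2 of the miR-21-/- tumors alone 22, 10 and 6 were. A single probe set of Tjp1 was at -1.85 in untreated tumors, apart from the other probe sets of that gene. Probe sets of a gene share the RNA of the same arrays and are not replicates.

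**Figure D4:**
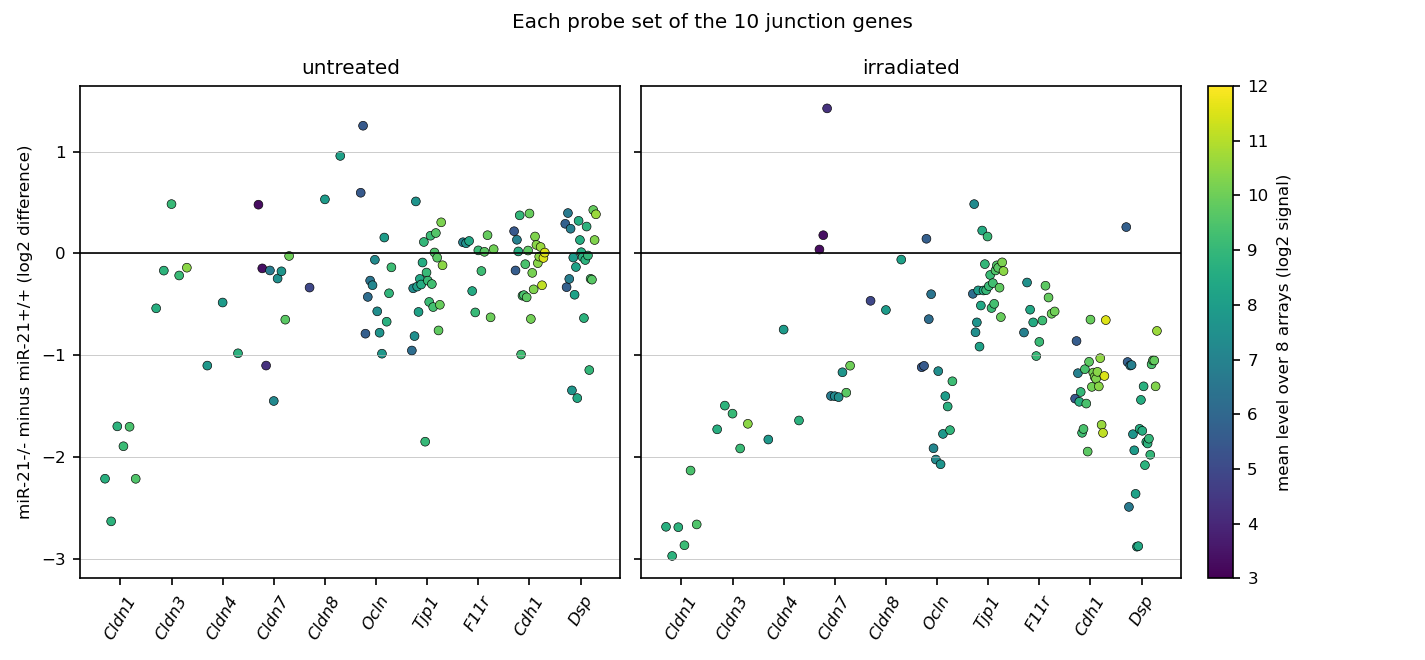
Log2 difference between miR-21-/- and miR-21+/+ tumors (vertical axis) for each of the 122 probe sets of the 10 genes, ordered by level within a gene and colored by mean level, in untreated (left) and irradiated tumors (right). The 6 probe sets of Cldn1 are below -1.5 in both panels, and those of Cdh1 move from both sides of 0 to below it.

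Of 67 other junction genes on 4 lists, 0 met the criterion of fold change and unadjusted p between the genotypes in untreated tumors, and 10 had an unadjusted p under 0.05 in limma at a smaller fold change. The share of all genes with such a p was 13.2%. Of the 10, 9 had a negative difference, among them the desmosome linker Ppl (-0.83) and vinculin, Vcl (-0.84), and 1 a positive one, the scaffold gene Magi3 (0.87), which had the largest difference of the 10. These genes were singled out after their values were seen. The 18 other claudins and claudin-domain genes had a median untreated difference of 0.09, and 0 of them met the criterion in either radiation comparison. Their largest irradiated differences were those of Cldn15 (1.38), Cldn25 (-0.89) and Cldn2 (-0.75), of which Cldn15 was at 7.01 on the array with high adipocyte markers and at 3.64 to 4.20 on the other 7. Without that array Cldn15 was at -0.0783, Cldn25 at -0.97 and Cldn2 at 0.40. Of 20 other tight junction proteins (median 0.08 in untreated tumors), 1 was lower after irradiation without miR-21, the occludin relative Marveld3 (-1.30, adjusted p = 0.363 from limma). In irradiated tumors Ildr1, an angulin of tricellular junctions, was at -1.85, Marveld3 at -1.42 and tricellulin, Marveld2, at -1.15, and without irradiated miR-21-/- replicate 1 they were at -0.79, -0.71 and -0.47. Without that array the value of Marveld3 after irradiation was -0.58.

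Over 18 adherens junction genes the median untreated difference was -0.27. The nectin gene Pvrl3 met the criterion after irradiation in miR-21+/+ tumors (-1.13, limma adjusted p = 0.229), and P-cadherin, Cdh3, in miR-21-/- tumors (1.30, adjusted p = 0.203), with 5.58 and 6.30 against 4.79 and 4.50. Cdh3 read 6.06 and 6.16 in irradiated and 5.32 and 5.20 in untreated miR-21+/+ tumors, so all irradiated arrays were above all untreated ones. P-cadherin is known from basal cells, and the mean of the basal markers was 5.99 and 5.46 on the irradiated miR-21+/+ arrays, 5.88 and 6.29 on the irradiated miR-21-/- arrays and 5.24 to 5.56 on the untreated ones. The part of basal cells in this was not tested. The largest irradiated differences between the genotypes were those of Epcam (-0.90), itself a reference gene, the mesenchymal cadherin Cdh11 (0.87) and p120-catenin, Ctnnd1 (-0.84). Without irradiated miR-21-/- replicate 1 they were at -0.15, -0.15 and -0.32.

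Over 11 desmosome genes the median untreated difference was -0.44, and the desmosomal cadherin Dsg3 rose after irradiation in miR-21+/+ tumors (1.35, standard error 0.18, adjusted p = 0.0496 from limma, not tried under other settings). Dsg3 read 5.57 and 5.50 in those tumors and 3.26 to 4.23 on the other 6 arrays. Basal and skin epithelium is known to make Dsg3, and the skin keratinocyte markers were high on replicate 1 of those tumors (mean 5.49) but not on replicate 2 (4.21). In irradiated tumors the largest differences were those of Dsg3 (-1.45), Dsg2 (-1.26) and Dsc2 (-1.07), which were at -1.40, -0.38 and -0.41 without irradiated miR-21-/- replicate 1.

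Among 13 transcription and splicing factors of epithelial cells, Elf5, a regulator of the luminal alveolar lineage, met the criterion in untreated tumors (1.23 without miR-21, limma adjusted p = 0.293). After irradiation Spdef met it in miR-21+/+ tumors (-1.34, adjusted p = 0.179) and Grhl3 in miR-21-/- tumors (-1.08, adjusted p = 0.369). In irradiated tumors Ehf was at -1.27, Esrp1 at -0.99 and Esrp2 at -0.98, and without irradiated miR-21-/- replicate 1 they were at -0.0859, 0.0232 and -0.26. Without that array the value of Grhl3 after irradiation was -0.69. Of 8 repressors of junction genes, 0 met the criterion or had an unadjusted p under 0.05 from limma in untreated tumors (median -0.21). Snai2, which encodes Slug, had a difference of 2.05 after irradiation in miR-21-/- tumors (standard error 0.25, adjusted p = 0.0665 from limma), at 7.02 and 6.73 on both irradiated arrays and 4.56 to 5.67 on the other 6. Zeb2 was also higher by fold change and unadjusted p (1.67, adjusted p = 0.374), at 7.73 and 5.71, and Zeb1 was at 6.86 and 4.67. Zeb1 was thus high on the array with high fibroblast and adipocyte markers alone, and Snai2 on both irradiated miR-21-/- arrays. Zeb2 was high on the first of these. On replicate 2 Zeb2 was 0.65 above the untreated miR-21-/- mean and 0.34 above the irradiated miR-21+/+ mean. Of the 8 repressors, 6 had a positive difference after irradiation in miR-21-/- tumors and 2 a negative one, Snai1 (-0.23) and Tcf4 (-0.45). In untreated tumors Snai2 read 5.10 and 4.56 without miR-21 and 4.85 and 5.31 with it. The part of these repressors in the levels of the junction genes was not tested.

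For the 6 genes whose level spanned at least 2 log2 units over the 8 arrays, the 3 genes nearest in profile were sought by the root mean square difference after centring each gene over the arrays. The nearest to Cldn1 was the glucose transporter Slc2a1 (0.29), followed by Hhipl2 (0.33) and Epb4.1l4a (0.34). Slc2a1 read 9.01 to 9.51 in miR-21+/+ and 7.17 to 7.76 in miR-21-/- tumors. Mboat1 was nearest to Cldn3 (0.12), Ocln (0.0958) and Cdh1 (0.0914), and Ocln and Cdh1 were among the 3 nearest of each other (0.107). Marveld2, the coding gene next to Ocln on chromosome 13, was in place 3 for Ocln (0.108). Cldn3 was followed by Cd24a (0.15) and 5430407P10Rik (0.16), and Cdh1 by the receptor phosphatase Ptprk (0.0937). The profile of Cldn8 was nearest to Ltbp2 (0.17), Il17re (0.19) and Nhsl1 (0.22). The profiles nearest to Dsp were farther off, with Fam83b at 0.34, Mir669k at 0.41 and Col12a1 at 0.42. These profiles share 8 arrays, among them irradiated miR-21-/- replicate 1, on which all 6 genes were at their lowest.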

How the data were processed

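Total RNA of 8 tumor samples was hybridized to Affymetrix Mouse Gene 2.0 ST arrays. Per the labels, the authors made log2 signals of exon-level probe sets by RMA (which corrects background, quantile-normalizes the arrays and summarizes probes) in Affymetrix Expression Console 1.4, and Transcriptome Analysis Console 3.1 is also named. The deposited log2 values were used as given. Quantile normalization gives all arrays the same distribution, so a shift of most genes would not be seen. Arrays hold no read depth, and their number limits the precision.

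Of 269751 probe sets, 233753 were listed with 1 symbol and were averaged per gene (23152 genes, median 8 probe sets), while 5139 with several symbols and 30859 with none were left out. All genes were fitted with limma 3.58.1 in R 4.3.3, with a mean for each of the 4 groups, 4 residual and 3.54 prior degrees of freedom. Genes were called at a Benjamini-Hochberg adjusted p under 0.05 over all genes, and counted as changed at 2-fold or more with p under 0.05 before adjustment, the thresholds of the methods. The pipeline was tested on simulated data. The 10 genes, the junction and marker lists and the tests were chosen with earlier results of these data known. Named genes are the 10, list genes that changed or had the 3 largest irradiated differences, and the nearest profiles. Some symbols of the lists were matched through synonyms. The other settings were another normalization or centring, the median or the brighter probe sets, brighter genes, other variance models, a replicate block and leaving out each array. Sequences are from RefSeq (GRCm38.p6). Tables and plots used pandas 2.3.3, numpy 2.4.6 and matplotlib 3.10.9 in Python 3.11.15.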

Additional observations from a re-analysis of the deposited data

Results flagged for a closer look

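Within the 4 miR-21-/- arrays, Cldn8 and Dsp each had a single array far below the others, replicate 1 of the irradiated tumors. For Cldn8 the gap from this array (5.23) to its nearest neighbor was 0.937 of the whole range, and for Dsp (5.31) it was 0.903; both are above Dixon's 95% limit for 4 arrays. The 10 genes and the epithelial reference mean were examined in each genotype, 22 groups of 4 arrays, and 2 groups were flagged. Among alike arrays chance sets apart about 1 in 20 groups. Each group held untreated and irradiated arrays, which are not alike, so that rate is only a guide. The share of all genes that this rule would flag was not counted. Irradiated miR-21-/- replicate 1 was the lowest of the 8 arrays for 24.8% of all genes. The same array held the high adipocyte, fibroblast and endothelial markers and the low epithelial reference genes.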

How the results depend on the processing

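The direction of the untreated difference of Cldn1 and its place past a 2-fold change with an unadjusted p under 0.05 were kept in all 18 other settings, and its adjusted p missed 0.05 in 8 of them. The number of the 10 genes that changed in untreated tumors was 1, and 1 to 2 when an array was left out, the second being Cldn4 without untreated miR-21+/+ replicate 1. After irradiation of miR-21-/- tumors the number was 2. It was 0 with limma on the arrays of the comparison alone or without moderation of the variances, 1 with quantile normalization or with the epithelial reference genes as the center, 3 with array weights or with arrays centered on the median gene, and 0 to 5 when an array was left out. For the difference between the radiation effects it was 1, with 0 without moderation or with the epithelial center, 3 with array weights, and 0 to 5 when an array was left out. In irradiated tumors 6 genes were at least 2-fold lower between the genotypes. The number was 7 with the median or the brighter probe sets, where Cldn7 was past 2-fold (-1.46 and -1.31). It was 1 with the epithelial center and 2 to 9 when an array was left out. Without replicate 1 of the miR-21-/- tumors it was 2, and Dsp turned from -1.60 to 0.0488 (-3.24 without replicate 2). The cause of these changes was not tested. In miR-21+/+ tumors no setting gave a count other than 0.

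The replicate numbers did not pair the arrays (correlations of deviations -0.133 to 0.042), and a fit with them as a replicate block left the counts at 1, 0, 2, 1 and 6, with an adjusted p of 0.0496 for Cldn1. With the numbers of the irradiated miR-21-/- arrays crossed, a pairing added after seeing the data, the last count was 6. Of 900 values of single genes over all settings, 49 changed sign, 20 of them with the epithelial center and 9 without irradiated miR-21-/- replicate 1, and 0 of them had passed a test. Of the values past 2-fold, those that did so without that array were the irradiated difference of Dsp, the Dsp difference between the radiation effects (0.20) and the difference of Cldn8 after irradiation of miR-21-/- tumors (0.0605). A group reduced to 1 array was taken to have the spread of the others. Groups of 2 arrays leave wide intervals, so differences under 2-fold in these genes were mostly not detectable.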
